A study of Rattus norvegicus with 6 samples.

Results

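Autophagy and mitophagy genes were followed in differentiated H9c2 cells after knockdown of the long non-coding RNA Tug1. The set held 39 genes of the autophagosome assembly machinery, the cargo receptors and the mitophagy receptors, chosen by gene symbol, and all 39 were among the 40456 genes of the deposited count table. H9c2 is an established line of rat cardiomyoblasts. All cells, genotype WT, were kept for 5 days in medium with 1% serum and 1 µM retinoic acid, and then received 25 nM of gapmer by transfection, for 24 h. A gapmer is an antisense oligonucleotide with locked nucleic acid ends, and it leads RNase H to the RNA it pairs with. The control group (3 libraries) received a negative control gapmer and the knockdown group (3 libraries) a gapmer against Tug1, so both groups carried the transfection and the retinoic acid. The gapmers are shown because they are the only stated difference between the groups. Both are lower case throughout, since the labels do not give the positions of the modified bases.
Tug1 gapmer: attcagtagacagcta
negative control gapmer: gctcccttcaatccaa

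Total counts ran from 12978548 to 13544337 per library, and 1 CPM (counts scaled to library size, here with TMM factors) equalled 12.9 to 13.8 counts. Tug1 itself was at 54.7, 52.0 and 55.4 CPM in the controls and at 11.9, 11.2 and 12.5 CPM after knockdown, so the libraries followed their labels. The labels call the cells cardiomyocytes. Of 12 cardiac muscle markers, however, 5 (Myh6, Myh7, Nkx2-5, Tbx5 and Ryr2) stayed at or under 3 counts in every library, while 0 of the 8 skeletal muscle markers did. Tnni3, Nppa, Myl7 and Mybpc3 were also low, with at most 8 counts in any library. Only Tnnt2, Actc1 and Gata4 of the cardiac markers had enough counts to be tested. The cardiac markers summed to 359 to 390 CPM in controls and 418 to 469 CPM after knockdown, most of it Tnnt2. The summed level of the skeletal markers was 975 to 981 CPM in controls and 1434 to 1521 CPM after knockdown. Of the 8, 7 were called higher (against 30.8% of all tested genes) and Myod1 lower (log2 fold change -0.32). A muscle differentiation readout thus moved with the groups, mostly upward. Its part in the results below was not tested. Fibroblast markers summed to 37180 to 38869 CPM in controls and 32267 to 34930 CPM after knockdown, most of it Col1a1 and Col1a2. Col1a1 (-0.23) and Thy1 (-0.40) fell, Dcn rose (0.57), and Col1a2 (-0.08) and Lum (-0.06) did not pass. Of 8 endothelial and blood markers 6 stayed at or under 3 counts in every library, with Ptprc and Hbb at 0. Cd68, a marker of this list that is also found in lysosomes of other cells, was higher, with 37, 61 and 42 counts in controls and 88, 117 and 105 counts after knockdown (log2 fold change 1.09, adjusted p 2.41e-05). The labels give no separate cultures for the replicates, so p-values measure the spread between these libraries, which may be technical. Reads were bulk, and fewer cells that express a gene cannot be told apart from less RNA per cell.

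Autophagy encloses cytoplasm in a double membrane, the autophagosome, and delivers it to the lysosome. A kinase complex starts the process, a lipid kinase complex marks the membrane, and conjugating enzymes attach ATG8 proteins to it, which in turn bind receptors that carry cargo. In mitophagy the cargo is a mitochondrion, marked by PINK1 or by receptors in its outer membrane, and heart and skeletal muscle depend on this route to clear damaged mitochondria.

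Most of the autophagy genes that changed were higher after Tug1 knockdown. Of the 39 genes, all of which passed the filter on low counts, 26 passed an adjusted p of 0.05, 23 higher and 3 lower. The share called in either direction was 66.7%, against 61.7% of the 14216 genes tested. By direction, 59.0% of the autophagy genes were called higher, against 30.8% of all tested genes, and 7.69% were called lower, against 30.9%. A rise of at least 0.5 on the log2 scale was called in 11 of the 39 (28.2%, against 15.9% of all tested genes), and a fall of that size in 0 (against 15.1%). The 39 genes were chosen with earlier results of these data known, so these shares only describe the list. The largest rises were those of the scaffold gene Rb1cc1 (log2 fold change 1.27), the E1-like enzyme gene Atg7 (0.86), the adaptor gene Atg16l1 (0.80), the scramblase gene Atg9a (0.79) and the mitophagy receptor gene Fundc1 (0.74). Wipi2 (-0.43), Atg101 (-0.38) and Gabarap (-0.13) fell.

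The median log2 fold change of the 39 genes was 0.26, beside 0.00 for all tested genes. Their median absolute log2 fold change, 0.34, was the same as that of all tested genes, 0.34, so the genes moved by an ordinary amount and mainly in the upward direction. Library by library, the median deviation from the control mean was -0.01, -0.01 and 0.01 in the controls and 0.28, 0.26 and 0.27 after knockdown. In 25 genes every knockdown library lay above every control library (64.1%, against 33.0% of all tested genes), and in 4 every knockdown library lay below (10.3%, against 32.6%). Replicates were close, with a median coefficient of variation over the genes of 4.43% in controls and 3.57% after knockdown. The 13 genes without a call had log2 fold changes between -0.12 and 0.11, 0 of the 13 had an unadjusted edgeR p under 0.05, and their 95% intervals lay between -0.26 (Atg12) and 0.33 (Atg4c). The genes took 0.401% to 0.412% of all counts in controls and 0.517% to 0.534% after knockdown, and without Sqstm1, the most heavily counted of them, 0.319% to 0.322% and 0.378% to 0.386%.

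**Figure D1:**
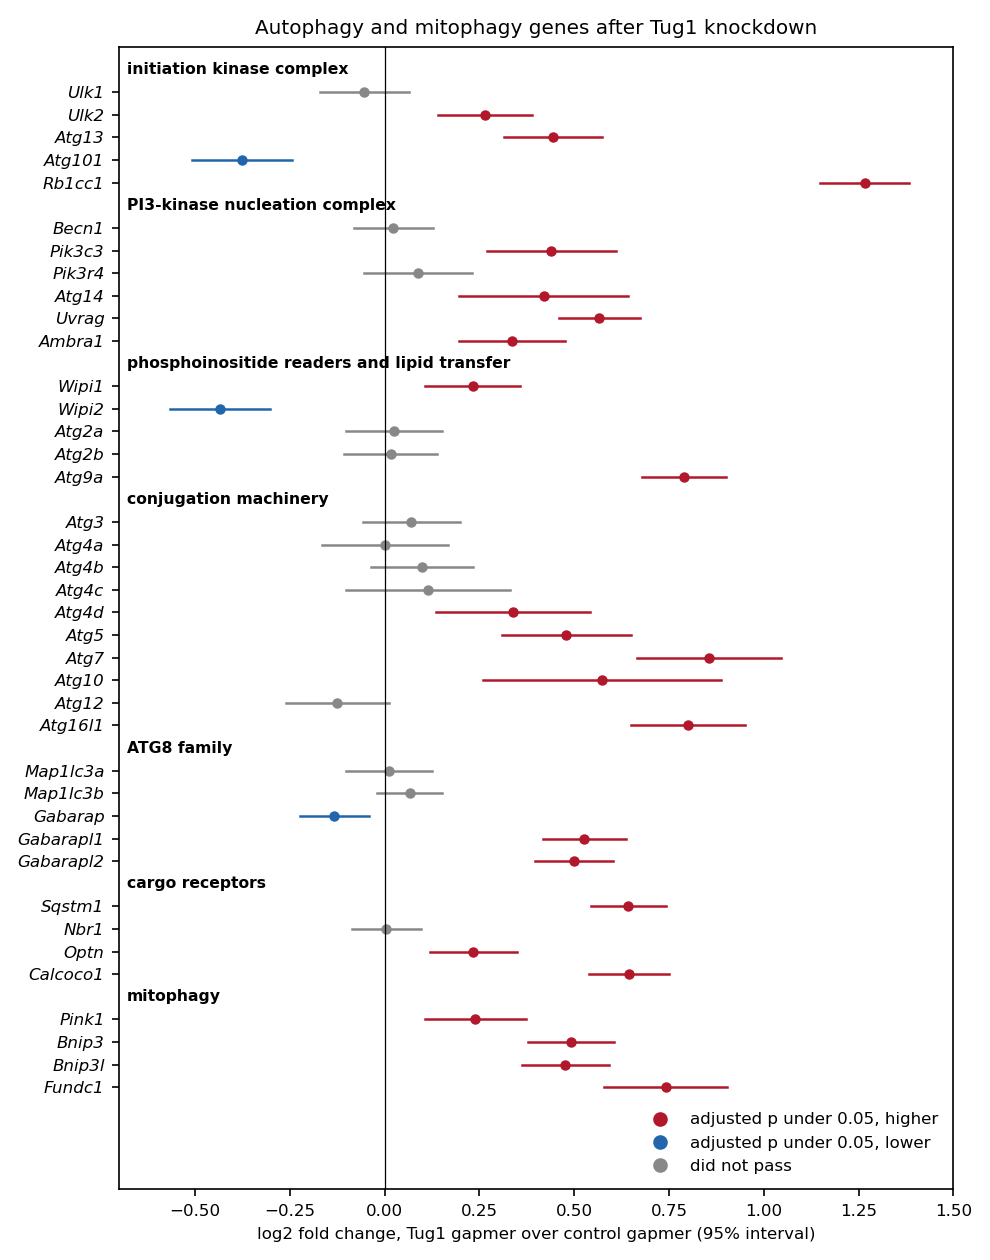
Log2 fold change of each of the 39 genes (x axis, Tug1 gapmer over control gapmer, points with 95% intervals), grouped by role on the y axis. Colour marks genes called higher (23), called lower (3) or not passing (13). Rb1cc1 stands furthest to the right at 1.27, and all 4 mitophagy genes lie above 0.

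Since 23 genes were called higher together, their promoters were searched for short motifs of factors known to act on autophagy and redox genes. RefSeq promoters (rat assembly GRCr8) were found for 33 of the 39 genes, and the 250 bases before the start were searched on both strands. Rb1cc1, Becn1, Atg9a, Map1lc3a, Bnip3l and Fundc1 had no full-length entry under their symbol. For every other gene only the first such entry was searched. The E-box CACGTG was present in 4 of 33 promoters (12.1%, against 5.79% of all 27457 promoters and 8.07% of those of tested genes). The longer TCACGTGA, which contains the E-box and is the core of the CLEAR element read by TFEB and TFE3, was present in 1 (3.03%, against 0.743% and 1.46%), that of Atg3, which did not pass. Of the 19 genes with a promoter that were called higher, 3 held the E-box (Atg5, Pink1 and Bnip3) and 0 the longer letters, and of the other 14 genes 1 (Atg3) held both. Stretches with the E-box are shown, with the matched letters in capitals.
Atg3, GRCr8 chr11:69159281-69159339, minus strand: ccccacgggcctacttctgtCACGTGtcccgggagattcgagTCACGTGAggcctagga
Atg5, GRCr8 chr20:49380796-49380834, plus strand: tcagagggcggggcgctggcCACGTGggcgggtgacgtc
Pink1, GRCr8 chr5:155826023-155826131, minus strand: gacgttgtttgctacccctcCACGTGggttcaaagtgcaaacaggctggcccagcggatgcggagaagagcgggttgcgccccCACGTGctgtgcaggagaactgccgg
Bnip3, GRCr8 chr1:203155036-203155081, minus strand: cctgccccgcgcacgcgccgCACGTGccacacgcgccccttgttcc

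The antioxidant response element TGACNNNGC, the site of NRF2, was present in 4 of 33 promoters (12.1%, against 10.2% of all promoters and 12.2% of those of tested genes), a share like the background. It lay in the promoters of Ulk2, Atg4d and Atg10, which were called higher, and of Gabarap, which was called lower. The FOXO letters TGTTTAC were in 0 of 33 windows (against 3.25% of all promoters and 1.98% of those of tested genes). Ulk2, Atg4d and Gabarap are shown as a pair of risers beside a gene that fell, with the matched letters in capitals. The Gabarap match lies on the strand opposite to the printed line, so its capitals are the reverse complement of the element. Atg10, with 2 matches, is not printed. A match is only a match of letters in these windows.
Ulk2, GRCr8 chr10:47029848-47029896, minus strand: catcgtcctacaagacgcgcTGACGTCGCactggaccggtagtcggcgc
Atg4d, GRCr8 chr8:28083898-28083935, plus strand: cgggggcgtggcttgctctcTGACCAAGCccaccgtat
Gabarap, GRCr8 chr10:55213266-55213314, plus strand: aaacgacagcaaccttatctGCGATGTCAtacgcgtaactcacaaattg

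The initiation kinase complex was uneven, with 3 of 5 genes higher, 1 lower and 1 not passing. Among all tested genes 30.8% were called higher and 30.9% lower. Rb1cc1, which encodes the large scaffold FIP200 that holds the complex together, was at 40.0, 39.9 and 40.3 CPM in the controls and at 97.6, 97.9 and 93.5 CPM after knockdown. The control libraries were nearly identical and every knockdown library was far above them. The log2 fold change was 1.27 (SE 0.0567, adjusted p 1.84e-14), or 241% of the control level, larger in size than that of 94.6% of all tested genes. Atg13, the regulatory subunit that links FIP200 to the kinase, was at 37.5, 37.6 and 39.5 CPM in controls and at 52.3, 52.7 and 50.9 CPM after knockdown. Its groups did not overlap, and it rose by 0.44 (SE 0.0628, adjusted p 1.92e-06).

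Atg101, the partner that stabilises ATG13, went the other way. It was at 71.6, 77.8 and 65.9 CPM in controls and at 53.4, 56.4 and 56.1 CPM after knockdown, without overlap, a log2 fold change of -0.38 (SE 0.0634, adjusted p 2.07e-05). The transcripts of these binding partners thus moved in opposite directions. The kinase genes differed as well. Ulk2 was at 46.2, 47.8 and 45.7 CPM in controls and at 56.1, 56.4 and 55.4 CPM after knockdown, a rise of 0.26 (SE 0.0594, adjusted p 0.000501) that did not pass with an offset for gene length (0.11, adjusted p 0.105). Ulk1 was at 97.0, 109 and 95.9 CPM in controls and at 95.2, 97.9 and 98.1 CPM after knockdown. Its groups overlapped, and the log2 fold change was -0.05 (95% interval -0.17 to 0.06, adjusted p 0.430).

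In the class III PI3-kinase complex, which makes the lipid that marks the forming membrane, 4 of 6 genes rose and 0 fell. The 66.7% called higher stood beside 30.8% of all tested genes. Uvrag, the subunit of the complex that acts at endosomes and in autophagosome maturation, was at 81.5, 83.0 and 87.3 CPM in controls and at 123, 123 and 127 CPM after knockdown. The groups lay far apart, with a log2 fold change of 0.57 (SE 0.0521, adjusted p 2.61e-09). With the length offset it was 0.22 and still passed (adjusted p 0.00059). Uvrag shares 712 bases with a lncRNA gene, LOC120099889, that was also called higher (0.88). Whether strand was used in counting is not given in the sources used here.

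Pik3c3, the catalytic subunit VPS34, was at 21.6, 21.0 and 21.2 CPM in controls and at 28.9, 26.5 and 31.2 CPM after knockdown, a rise of 0.44 (SE 0.0825, adjusted p 7.37e-05). Atg14, the subunit that directs the complex to autophagy, was at 11.7, 11.6 and 13.3 CPM in controls and at 15.6, 15.2 and 18.4 CPM after knockdown, a rise of 0.42 (SE 0.108, adjusted p 0.00183). For both genes the lowest knockdown library stood above the highest control library. Ambra1, a scaffold that couples the complex to ULK1, was at 42.0, 41.5 and 42.7 CPM in controls and at 48.3, 57.0 and 54.0 CPM after knockdown, a rise of 0.34 (SE 0.0676, adjusted p 0.000164). Ambra1 is a long gene, and the length offset brought it to 0.03 (adjusted p 0.701). The remaining genes of the complex, Becn1 and Pik3r4, did not pass. Becn1 (Beclin 1) was at 117, 117 and 124 CPM in controls and at 121, 123 and 120 CPM after knockdown (log2 fold change 0.02, 95% interval -0.08 to 0.13). Pik3r4 (VPS15) was at 33.1, 34.2 and 34.2 CPM in controls and at 37.3, 36.0 and 34.7 CPM after knockdown (0.09, 95% interval -0.05 to 0.23). Its groups did not overlap, but the difference was small against the spread. The RefSeq table places Rpl29, called lower at -0.35, across the whole span of Pik3r4.

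The genes that read the PI3-kinase lipid or supply the membrane split between relatives. The lipid-binding proteins WIPI1 and WIPI2 belong to the same family, and WIPI2 recruits ATG16L1. Wipi2 was at 70.6, 75.7 and 64.5 CPM in controls and at 53.3, 50.2 and 52.5 CPM after knockdown, a log2 fold change of -0.43 (SE 0.0636, adjusted p 3.21e-06). Wipi1 was at 47.8, 49.9 and 52.2 CPM in controls and at 57.2, 58.9 and 60.0 CPM after knockdown, a rise of 0.23 (SE 0.0602, adjusted p 0.00193). Neither gene's groups overlapped, so the relatives moved apart. Wipi1 overlaps Arsg, which was also called higher (0.62).

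Atg9a encodes the transmembrane scramblase whose vesicles seed the membrane. It was at 77.9, 72.6 and 71.1 CPM in controls and at 126, 130 and 127 CPM after knockdown, a rise of 0.79 (SE 0.0536, adjusted p 1.81e-11), or 173% of the control level. Atg9a is short in the genome, and with the length offset its value was 0.87. The lipid transfer proteins that work with ATG9A did not follow. Atg2a was at 88.0, 99.0 and 89.8 CPM in controls and at 95.2, 99.6 and 86.8 CPM after knockdown (0.02, 95% interval -0.10 to 0.15). Atg2b was at 63.2, 69.5 and 69.3 CPM in controls and at 65.6, 68.2 and 70.5 CPM after knockdown (0.02, 95% interval -0.11 to 0.14). In both the libraries of the groups overlapped.

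Of the 10 genes of the conjugation machinery, 5 rose (50%, against 30.8% of all tested genes), 0 fell and 5 did not pass. Atg7, the E1-like enzyme that activates both ATG12 and the ATG8 proteins, was at 13.1, 12.8 and 12.3 CPM in controls and at 21.8, 23.3 and 24.1 CPM after knockdown. The lowest knockdown library was well above the highest control library, and the log2 fold change was 0.86 (SE 0.0919, adjusted p 3.13e-08), or 0.54 with the length offset (adjusted p 2.34e-05). Atg16l1, which places the conjugating complex on the membrane, was at 27.8, 24.0 and 27.2 CPM in controls and at 45.4, 45.6 and 46.9 CPM after knockdown, a rise of 0.80 (SE 0.0726, adjusted p 2.05e-09). Atg5, its partner in that complex, was at 22.0, 18.9 and 20.6 CPM in controls and at 29.2, 27.7 and 28.8 CPM after knockdown, a rise of 0.48 (SE 0.082, adjusted p 2.46e-05). The third component did not rise with them. Atg12, the ubiquitin-like protein joined to ATG5, was at 55.1, 50.9 and 50.0 CPM in controls and at 49.6, 48.8 and 44.6 CPM after knockdown, and its log2 fold change of -0.12 (95% interval -0.26 to 0.01) did not pass (adjusted p 0.102), although the groups did not overlap.

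The E2-like enzymes also differed. Atg10, which joins ATG12 to ATG5, had the fewest counts of the 39 genes, 58 to 103 per library. It was at 5.06, 4.72 and 4.47 CPM in controls and at 7.47, 7.32 and 6.42 CPM after knockdown, a rise of 0.57 (SE 0.152, adjusted p 0.00229). Atg10 has the longest span of the 39 genes and did not pass with the length offset (0.21, adjusted p 0.237). Atg3, which joins ATG8 proteins to lipid, was at 58.4, 59.0 and 62.2 CPM in controls and at 67.7, 58.9 and 61.9 CPM after knockdown (0.07, 95% interval -0.06 to 0.20). Its groups overlapped, with only knockdown replicate 1 above the controls.

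ATG4 proteases trim ATG8 proteins before conjugation and release them again. Of their 4 genes, Atg4d alone passed, at 14.5, 18.0 and 17.0 CPM in controls and 22.4, 19.4 and 20.7 CPM after knockdown, a rise of 0.34 (SE 0.0977, adjusted p 0.0045). Its 317 bases of overlap with Kri1, which did not pass (0.14), make the strand of counting relevant. Atg4b was at 45.3, 42.2 and 40.6 CPM in controls and at 45.1, 47.1 and 44.9 CPM after knockdown (0.10, 95% interval -0.04 to 0.23). Atg4c was at 16.1, 17.1 and 16.0 CPM in controls and at 20.7, 16.0 and 16.5 CPM after knockdown (0.11, 95% interval -0.10 to 0.33), with knockdown replicate 1 standing above the other 5 libraries. Atg4a was at 25.2, 24.4 and 27.1 CPM in controls and at 27.0, 24.6 and 25.1 CPM after knockdown (0.00, 95% interval -0.16 to 0.17). With the length offset Atg4a was called lower (-0.19, adjusted p 0.0379). Differences between the 4 genes were not tested.

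The ATG8 family holds the ubiquitin-like proteins that coat the autophagosome, and its GABARAP branch split. Gabarapl1 was at 115, 119 and 129 CPM in controls and at 173, 181 and 171 CPM after knockdown, a rise of 0.53 (SE 0.0524, adjusted p 9.19e-09). Gabarapl2 (GATE-16) was at 132, 131 and 142 CPM in controls and at 194, 192 and 186 CPM after knockdown, a rise of 0.50 (SE 0.0494, adjusted p 8.40e-09). Both rose to about the same share of their control level, 144% and 141%. Gabarap was at 386, 383 and 385 CPM in controls and at 361, 358 and 334 CPM after knockdown. Its groups did not overlap, and it fell by 0.13 on the log2 scale (SE 0.0439, adjusted p 0.0117). It did not pass without knockdown replicate 3, the lowest library (-0.10, adjusted p 0.0774), or with library totals in place of TMM (-0.08, adjusted p 0.115), and with the length offset it was positive (0.04, adjusted p 0.411).

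The LC3 branch did not pass. Map1lc3a was at 193, 193 and 172 CPM in controls and at 195, 193 and 174 CPM after knockdown (0.01, 95% interval -0.10 to 0.13), with replicate 3 low in both groups. Map1lc3b was at 448, 453 and 442 CPM in controls and at 476, 471 and 461 CPM after knockdown (0.07, 95% interval -0.02 to 0.15). Every knockdown library of Map1lc3b was above every control, and it was called higher with library totals (0.12, adjusted p 0.0145) and with the length offset (0.14, adjusted p 0.00262). Map1lc3a, the shortest of the 39 genes, was called higher with the length offset as well (0.23, adjusted p 0.000249). RefSeq names pseudogenes of Gabarap (3), Gabarapl2 (3) and Map1lc3b (2). None of the 19 pseudogenes it names for 7 of the 39 genes has an entry in the count table, so how their reads were assigned is unknown and these levels are uncertain to that extent. Gabarapl2 also overlaps Adat1, called higher (0.44).

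Among the cargo receptors 3 of 4 genes rose (75%, against 30.8% of all tested genes). Sqstm1 encodes p62, which binds ubiquitinated cargo and is itself degraded by autophagy, and is a known target of NRF2. It was at 891, 916 and 841 CPM in controls and at 1296, 1470 and 1368 CPM after knockdown, a rise of 0.64 (SE 0.0476, adjusted p 7.25e-11). Calcoco1, a receptor for reticulum and Golgi membranes, was at 121, 131 and 126 CPM in controls and at 190, 207 and 194 CPM after knockdown, also a rise of 0.64 (SE 0.0512, adjusted p 2.33e-10). Both stood at 156% of the control level, with wide gaps between the groups. Optn, the optineurin gene, whose product acts in mitophagy, was at 87.3, 80.7 and 88.8 CPM in controls and at 104, 97.8 and 101 CPM after knockdown, a smaller rise of 0.23 (SE 0.0549, adjusted p 0.000783). Nbr1, a receptor with a domain layout like that of p62, was at 298, 309 and 297 CPM in controls and at 291, 309 and 306 CPM after knockdown. Its groups overlapped (0.00, 95% interval -0.09 to 0.10, adjusted p 0.937).

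All 4 mitophagy genes rose, and their groups did not overlap. Of all tested genes 30.8% were called higher, and 33.0% had every knockdown library above every control library. Fundc1, an outer membrane receptor that responds to low oxygen, was at 20.6, 21.2 and 22.3 CPM in controls and at 38.3, 35.1 and 33.8 CPM after knockdown, a rise of 0.74 (SE 0.0785, adjusted p 2.52e-08). Bnip3 and its relative Bnip3l (NIX) encode outer membrane receptors whose genes are known targets of the hypoxia factor HIF1. Bnip3 was at 94.9, 95.4 and 97.2 CPM in controls and at 140, 139 and 125 CPM after knockdown, a rise of 0.49 (SE 0.0547, adjusted p 5.51e-08), with knockdown replicate 3 the lowest of its group. Bnip3l was at 79.2, 74.3 and 79.9 CPM in controls and at 111, 103 and 110 CPM after knockdown, a rise of 0.48 (SE 0.0549, adjusted p 9.23e-08). RefSeq names 8 pseudogenes of Bnip3 and 1 of Bnip3l. Pink1, the kinase that marks depolarised mitochondria, was at 42.0, 45.4 and 40.4 CPM in controls and at 49.7, 51.0 and 50.1 CPM after knockdown, a rise of 0.24 (SE 0.0643, adjusted p 0.00266). The outer membrane receptors thus stood at 139% to 167% of control and Pink1 at 118%. Bnip3 and Pink1 are among the genes whose promoter E-boxes are printed above.

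**Figure D2:**
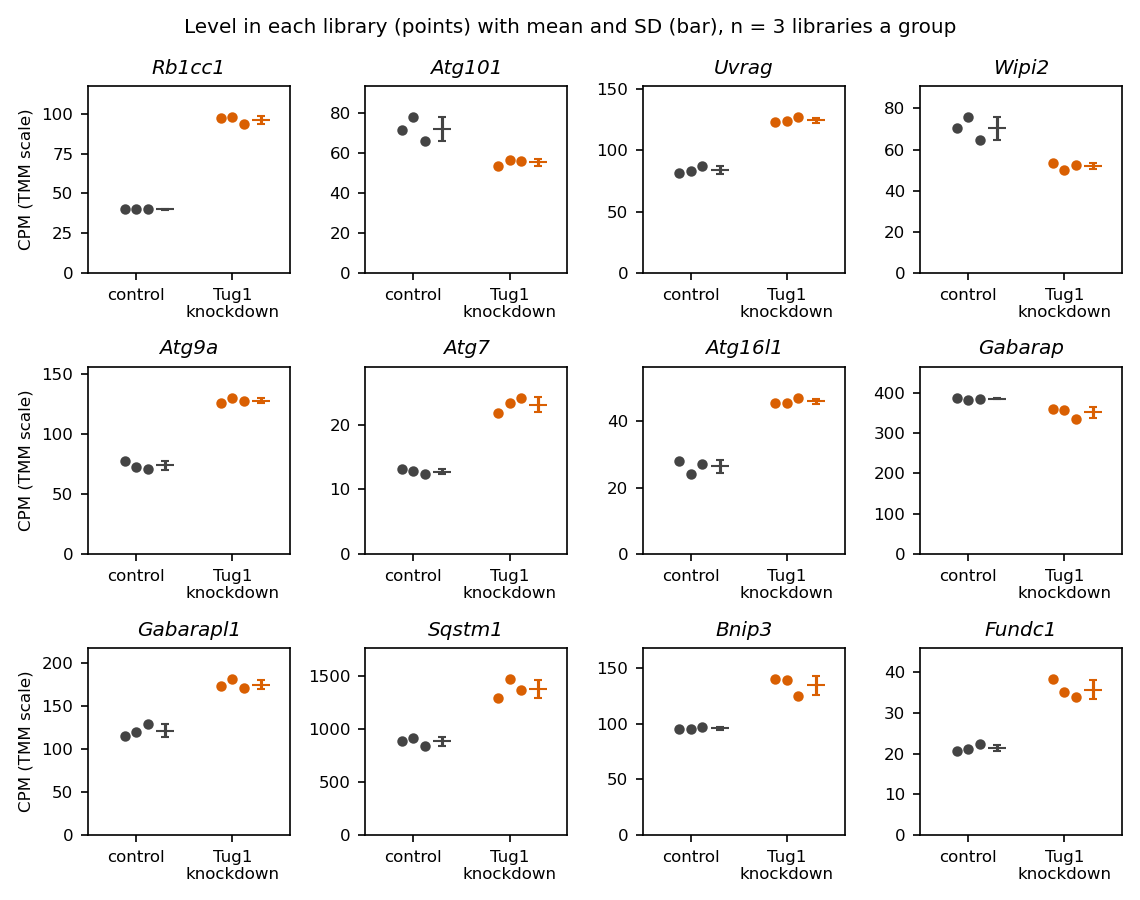
Level of 12 of the genes, picked to show each role and both directions, in CPM on the TMM scale (y axes from 0, each gene on its own scale). Points are the 3 libraries of a group and bars the mean with its SD. The groups do not overlap for any of the 12; Rb1cc1 has the largest fold change (39.9 to 40.3 against 93.5 to 97.9 CPM) and Gabarap the smallest.

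Other genes of the pathway were read from 5 further lists. Of 97 names 96 were in the table and 95 were tested, and 67 of these (70.5%) passed, 45 higher (47.4%) and 22 lower (23.2%), against 61.7%, 30.8% and 30.9% of all tested genes. Their median log2 fold change was 0.12. A fall of at least 0.5 on the log2 scale was called in 7 of the 95 (against 15.1% of all tested genes), and a rise of that size in 12 (12.6%, against 15.9%). Among 13 further core genes 6 rose (46.2%) and 4 fell (30.8%). Rubcn, which encodes Rubicon, an inhibitor of the UVRAG-containing PI3-kinase complex, was at 41.6, 42.6 and 41.0 CPM in controls and at 21.3, 25.4 and 21.9 CPM after knockdown (log2 fold change -0.87, SE 0.0776, adjusted p 1.66e-09). So the inhibitor gene fell while Uvrag rose. Atg9b, the relative of Atg9a, rose by 1.08 (SE 0.109), and Tp53inp2, whose product binds ATG8 proteins, rose by 0.63 (SE 0.0418).

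In the list for fusion of autophagosomes with lysosomes, 8 of 15 genes rose and 5 fell. The share called higher was 53.3%, against 30.8% of all tested genes. The share called lower, 33.3%, was near the 30.9% of all tested genes. Snap29, which encodes a SNARE protein that joins the membranes, was at 57.4, 56.1 and 55.8 CPM in controls and at 30.0, 30.5 and 33.5 CPM after knockdown (-0.85, SE 0.0661, adjusted p 1.61e-10). Ykt6, another SNARE gene, was at 263, 261 and 271 CPM in controls and at 183, 176 and 189 CPM after knockdown (-0.53, SE 0.0461, adjusted p 9.03e-10). Both had knockdown libraries well below the controls. Vps41, a subunit of the HOPS tethering complex, rose by 0.49 (SE 0.0549).

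Of 13 tested further receptors and adaptors 8 rose (61.5%, against 30.8% of all tested genes) and 3 fell (23.1%, against 30.9%). Wdfy3 (ALFY), an adaptor for protein aggregates, rose by 0.89 (SE 0.0564), and Ccpg1, a receptor for the reticulum, by 0.77 (SE 0.0645). Rtn3, which encodes another receptor for the reticulum, was at 427, 426 and 428 CPM in controls and at 274, 262 and 271 CPM after knockdown (-0.67, SE 0.0427, adjusted p 6.75e-12). Receptor genes for the same organelle moved in opposite directions. Calcoco2 was not tested because of its low counts.

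Of 17 further mitophagy genes 7 rose (41.2%, against 30.8% of all tested genes) and 3 fell (17.6%, against 30.9%). Pgam5, a mitochondrial phosphatase that acts on FUNDC1, was at 135, 138 and 128 CPM in controls and at 64.7, 66.0 and 73.8 CPM after knockdown (-0.97, SE 0.0582, adjusted p 2.31e-12). The ubiquitin ligase gene Huwe1 was at 247, 245 and 249 CPM in controls and at 139, 141 and 139 CPM after knockdown (-0.82, SE 0.0453, adjusted p 5.58e-13). Usp8, a deubiquitinase gene, rose by 0.48 (SE 0.0572).

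Of 37 tested genes of upstream control 16 rose (43.2%, against 30.8% of all tested genes) and 7 fell (18.9%, against 30.9%). Foxo1, a transcription factor with autophagy genes among its targets, was at 6.67, 6.66 and 6.32 CPM in controls and at 13.3, 13.5 and 13.7 CPM after knockdown (1.04, SE 0.118, adjusted p 7.51e-08). Foxo3 rose by 0.23 (SE 0.0606, adjusted p 0.00191) but was at 0.05 with the length offset (adjusted p 0.496). The lysosomal regulators did not rise. Tfeb was at 14.4, 16.7 and 13.7 CPM in controls and at 14.1, 12.3 and 13.7 CPM after knockdown (-0.16, 95% interval -0.38 to 0.06, adjusted p 0.204). Tfe3 was at 89.2, 91.4 and 83.8 CPM in controls and at 76.0, 81.4 and 77.1 CPM after knockdown (-0.17, SE 0.0559, adjusted p 0.00971), and did not pass with library totals (-0.12, adjusted p 0.0640) or the length offset (-0.11, adjusted p 0.0669). Mtor, the kinase that restrains ULK1, rose by 0.43 (SE 0.0613), and so did Deptor (0.76, SE 0.0581), whose product inhibits it, and Sesn3 (0.50, SE 0.0454), whose product lowers its activity. Rragc, a GTPase that brings it to the lysosome, fell, with a log2 fold change of -0.48 (SE 0.0446, adjusted p 3.14e-09).

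**Figure D3:**
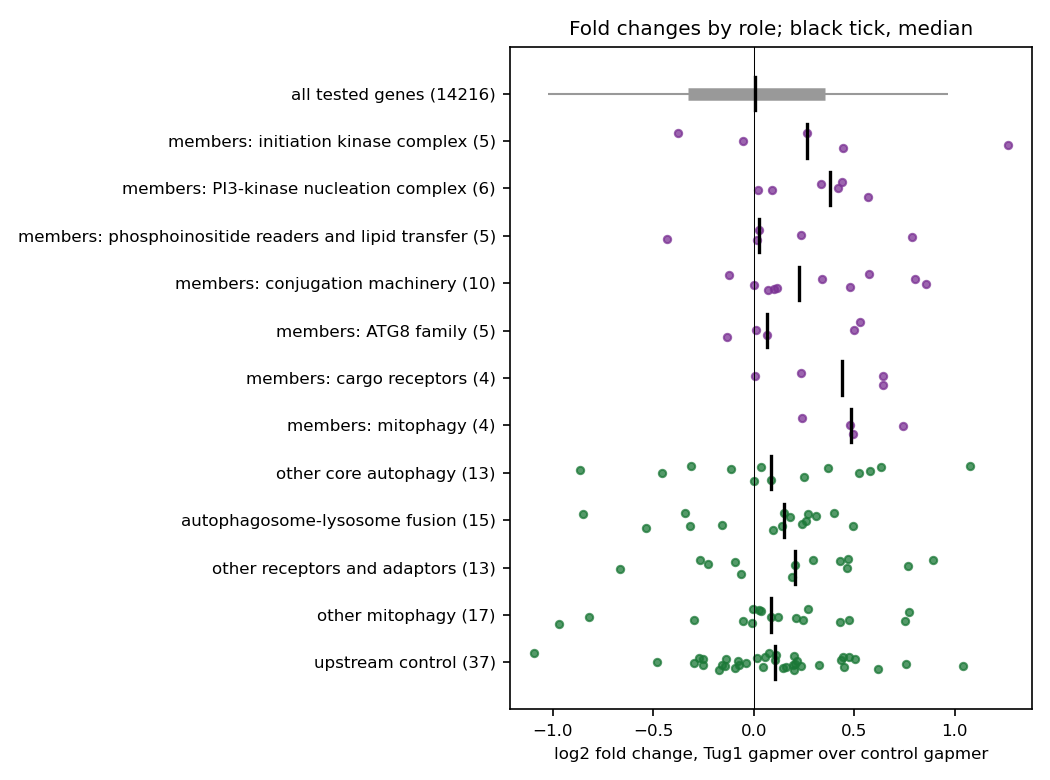
Log2 fold change (x axis, Tug1 gapmer over control gapmer) of each tested gene by role, with the number of genes in brackets; black ticks are medians. For all tested genes the thick bar spans the middle 50% of values (-0.33 to 0.36) and the thin line the 5% to 95% range (-1.02 to 0.97). Medians run from 0.02 for the lipid readers to 0.48 for mitophagy among the 39 genes, and from 0.08 to 0.20 in the other lists.

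Across the 13084 tested genes with a known genomic span, log2 fold change and span had a Spearman correlation of 0.269, and across the 39 genes of 0.229 (a description over genes of the same libraries, with no test). The fit was therefore repeated with an offset that removes each library's trend over genomic span. Spans of the 39 genes in GRCr8 run from 1647 bases (Map1lc3a) to 289765 bases (Atg10). With the offset 25 genes were called, 22 higher and 3 lower, against 30.3% higher and 31.8% lower of the 13084 genes with a span, and the median was 0.21. Of the 26 genes called without it, 22 kept their call and direction, 4 lost it (Ulk2, Ambra1, Atg10 and Gabarap), and 3 others gained one (Map1lc3a and Map1lc3b higher, Atg4a lower). Rb1cc1 remained the largest rise at 1.14 (adjusted p 1.18e-13). The rises of Sqstm1 (0.72), Calcoco1 (0.70), Fundc1 (0.78), Gabarapl1 (0.62) and Bnip3 (0.53), with spans of 9143 to 17185 bases, were larger with the offset. Those of longer genes such as Pik3c3 (0.28), Atg5 (0.30) and Optn (0.14) were smaller with it but still passed. Atg101 (-0.28) and Wipi2 (-0.45) stayed lower. The rises given above for Wdfy3, Deptor, Vps41 and Mtor, of the other lists, are values without the offset. Their spans are 241057, 169321, 164398 and 109454 bases. Why fold changes followed length was not tested.

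**Figure D4:**
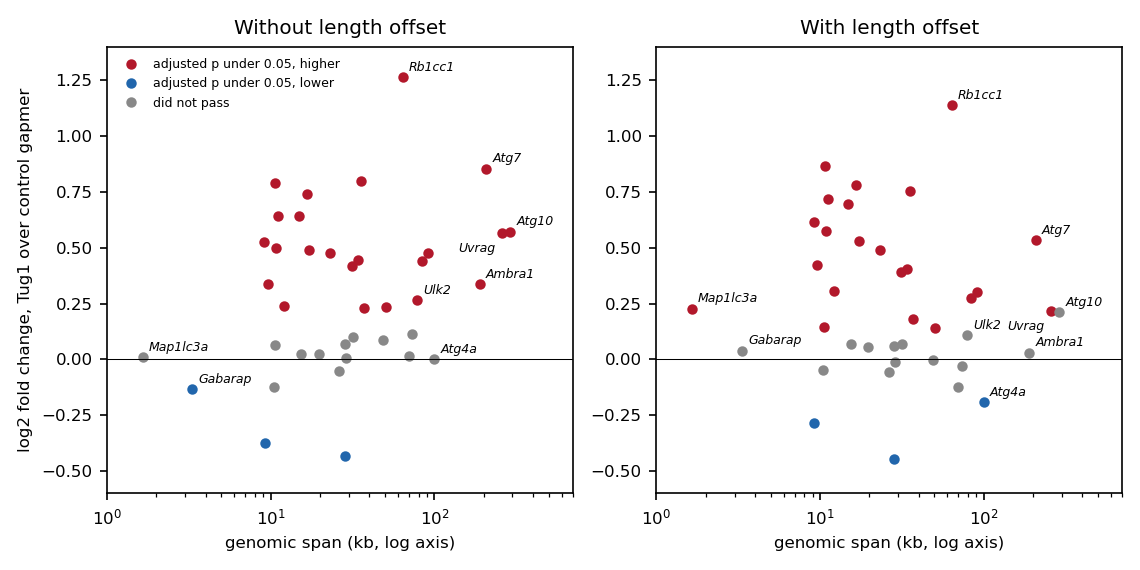
Log2 fold change (y axis) of the 39 genes against genomic span in kb (log axis), without (left) and with (right) the length offset; colours mark the call in each fit. The long genes Uvrag, Ambra1, Atg7 and Atg10 move down in the right panel (Atg7 from 0.86 to 0.54), and the short genes Map1lc3a and Gabarap move up.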

How the data were processed

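Poly-A RNA of H9c2 cells was sequenced from stranded libraries made from 500 ng of RNA with an integrity number of at least 9, per the labels' protocols. Deposited values are raw counts under gene symbols, 1 column per library, unscaled and not pooled, per the file headers and values. FastQC 0.11.7, fastp 0.14.1 and STAR 2.5 are named in the submitters' processing notes. Counting tool, build, annotation, use of strand and multi-mapped reads are not given in the sources used here, so coordinates are printed only for RefSeq promoters of GRCr8.

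The fit used edgeR 4.0.16 (R 4.3.3): expression filter (minimum count 10, total 15), TMM, quasi-likelihood test without a block (two-sided, prior count 0.125, 3 against 3 libraries), Benjamini-Hochberg adjustment over 14216 genes, call at 0.05. Log2 fold changes are knockdown over control, intervals are 95%, and 3 counts were the detection limit (0.217 to 0.232 CPM, counting error only). All 39 members are named. Of each other list the 3 smallest p past the threshold are named, with Mtor, Tfeb, Tfe3, Foxo1 and Foxo3; another gene that met this rule is not reported here. Members and lists were chosen with earlier results of these data known. Alternatives were DESeq2 size factors, library totals, DESeq2 1.42.0, no filter, an adjusted p of 0.01, a replicate block, a length offset (lowess span 0.3), both together, and each library left out. Tested on simulated data with the library sizes of this comparison (14207 genes), edgeR recovered 76.5% of genes changed by 0.5 on the log2 scale and 91.9% of those changed by 1. Few genes were changed there (98 by 0.5 and 99 by 1), and every gene was given the same dispersion. In the real data 61.7% of genes were called, so the recovery there may differ.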

Additional observations from a re-analysis of the deposited data

How the results depend on the processing

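Counts of changed autophagy and mitophagy genes ran from 25 to 26 over 14 alternatives (22 to 24 higher, 2 to 3 lower), beside 7353 to 8987 of all genes. In the other lists they ran from 9 to 10 (core), 10 to 14 (fusion), 10 to 11 (receptors), 8 to 13 (mitophagy) and 19 to 24 (upstream control). The median log2 fold change of the 39 genes was 0.32 with library totals, 0.25 with no filter, 0.21 with the length offset and 0.21 with that offset and the replicate block, and lay between 0.25 and 0.28 in the 6 fits without a library. Tug1 lay between -2.22 and -2.15 in those fits and kept its call throughout. Of the 26 genes called among the 39, 22 kept direction and call in every alternative and 4 did not. Of the 13 without a call, 4 kept their direction and stayed without one in every alternative. Of 20 other named genes 17 kept their direction, and their call or lack of one, in every alternative. Replicate numbers did not pair the libraries (correlations of deviations -0.0053, 0.030 and 0.027). With the number as a replicate block 26 members and 8848 genes were called, and 0.26 was the median.

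Signs turned mostly in genes without a call. With the length offset, and with that offset and the replicate block, values were -0.00068 and -0.0012 for Pik3r4, -0.12 and -0.12 for Atg2b, -0.19 and -0.19 for Atg4a, -0.030 and -0.034 for Atg4c, 0.039 and 0.040 for Gabarap (the only one of these called in the fit reported above, as lower), and -0.0096 and -0.0097 for Nbr1. Atg4a was at -0.0017 with DESeq2 size factors, -0.0018 with DESeq2 and -0.0093 with no filter, and Nbr1 at -0.0063 with no filter. In the fits without a library, ranges crossed 0 for Ulk1 (-0.085 to 0.0070), Atg2a (-0.017 to 0.081), Atg2b (-0.030 to 0.044), Atg4a (-0.039 to 0.047), Atg4c (-0.013 to 0.19), Map1lc3a (-0.038 to 0.066) and Nbr1 (-0.0093 to 0.032). The cause was not tested. Depth limits Atg10 most of the 39 genes.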
